A study of Homo sapiens with 8 samples.

Results

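A set of 10 genes of the unfolded protein response (UPR) of the endoplasmic reticulum (ER) were followed by ribosome profiling in neuroblastoma cells given an inhibitor of translation initiation. They are HSPA5, HSP90B1, HYOU1, DNAJB9, SDF2L1, PDIA4, CRELD2, MANF, HERPUD1 and XBP1. They were taken by name, as widely used readouts of ER stress, from the 60651 genes of the deposited table. Each name matched 1 gene, and all 10 passed the filter on low values that left 11778 genes for testing.

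IMR32 is an established human neuroblastoma line with amplified MYCN, and every library came from this line, labelled wild type and grown in RPMI medium. Cells of 4 libraries received CR31B, an analogue of silvestrol, and cells of the other 4 received DMSO at 0.1%, both for 6 h. The concentration of CR31B is not given in the sources used here. All cells were given cycloheximide, which stops elongating ribosomes, before harvest, and protected fragments of 28 to 30 nt were sequenced. The 4 replicates per group are called biological in the study's design, without stating whether they were separate cultures, so p-values measure only the spread between these libraries.

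The UPR answers an excess of unfolded protein in the ER through 3 membrane sensors. IRE1 (gene ERN1) splices the XBP1 message so that it encodes an active transcription factor, ATF6 is cut in the Golgi to free another transcription factor, and PERK (EIF2AK3) phosphorylates eIF2alpha, which slows initiation while the message of ATF4 is translated more. ATF6 and spliced XBP1 induce ER chaperones and ER-associated degradation. ATF4 is also raised by other eIF2alpha kinases that do not sense the ER, so chaperones of the ATF6 and XBP1 arms are commonly read beside ATF4 to ask whether ER stress accompanies it. CR31B belongs to the rocaglates, which clamp the helicase eIF4A on purine-rich RNA ahead of the start codon.

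The labelled cell type, neuroblast, was checked against its markers. Of 13 adrenergic neuroblast markers, 12 were at 1 TPM or more in every library, TPM being the footprint level per transcript length scaled to 1 sum per library. The exception was TH (tyrosine hydroxylase), at 0.35 to 1.19 TPM. Summed levels of this list ran from 1350 to 1930 TPM in CR31B and from 1260 to 1510 TPM in DMSO. MYCN, amplified in this line, is a large part of these sums, at 594.55 to 1075.78 TPM in CR31B and 542.02 to 646.63 TPM in DMSO. Of 8 mesenchymal markers, TWIST1 and COL1A1 were at 1 TPM or more in every library, 5 were below 1 TPM in every library, and the list summed to 39.3 to 49.0 TPM in CR31B and 35.6 to 55.3 TPM in DMSO. None of 4 Schwann, 5 immune or 3 endothelial markers reached 1 TPM in every library. The highest sums of these lists were 2.07, 0.24 and 1.06 TPM, and SOX10, the defining Schwann factor, was listed at 0 in each of the 8. The protein-coding share of TPM ran from 51.8% to 61.3%, and 17857 to 22270 genes were above 0 per library. TPM does not keep read numbers, so the depth behind each value is unknown here.

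The promoters were searched for the sequence by which UPR targets are usually recognised, which 7 of the 10 genes held. The ER stress response element, ERSE, is read by ATF6 together with NF-Y and was searched as CCAAT and CCACG with 9 bases of any kind between them. Its variant ERSE-II was searched as ATTGG and CCACG with 1 base between them. Both were searched on both strands of the 250 bases before each RefSeq start (GRCh38.p14). RefSeq windows matched 10 of 10 members. ERSE was present for 4 members and ERSE-II for 3 others, so 7 of 10 members held either element, against 43 of 27305 genes in all, or 0.157%. The 10 were picked as known readouts of ER stress, so this share is a description and not a test. The stretches below run 5′ to 3′ on the gene's strand, with the match in capitals, and are shown because ERSE is the element read by ATF6.
HSPA5, ERSE, chr9:125241376-125241424 (-): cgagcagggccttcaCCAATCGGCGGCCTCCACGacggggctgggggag
HSP90B1, ERSE, chr12:103930201-103930249 (+): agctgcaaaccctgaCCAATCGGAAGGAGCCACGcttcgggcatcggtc
XBP1, ERSE, chr22:28800588-28800636 (-): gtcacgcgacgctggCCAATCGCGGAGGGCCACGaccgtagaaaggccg
CRELD2, ERSE read on the other strand, chr22:49918539-49918587 (+): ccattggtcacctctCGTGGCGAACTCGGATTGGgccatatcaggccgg
HERPUD1, ERSE-II, chr16:56932010-56932050 (+): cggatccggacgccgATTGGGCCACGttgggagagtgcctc
SDF2L1, ERSE-II read on the other strand, chr22:21642099-21642139 (+): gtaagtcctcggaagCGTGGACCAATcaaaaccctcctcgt
HYOU1, ERSE-II read on the other strand, chr11:119057259-119057299 (-): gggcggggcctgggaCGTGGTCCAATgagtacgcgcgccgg
The HSPA5, HSP90B1 and XBP1 matches lie 66, 194 and 52 bases before the start at their first base. HSP90B1 holds another ERSE match at 89 bases, and HYOU1 another ERSE-II match at 185 bases. In GENCODE 29, the HSPA5, HYOU1 and SDF2L1 stretches lie in no gene, and the CRELD2 stretch lies inside the gene span of CRELD2 outside its exons. The HSP90B1 stretch lies in the gene span of HSP90B1 and overlaps an exon of the pseudogene TTC41P on the other strand. The stretch around the other HSP90B1 match, not printed, overlaps an exon of HSP90B1. The XBP1 and HERPUD1 stretches reach into a first exon of their own gene, and none of the stretches holds coding sequence. A match is a description of the letters and not a measured binding site.

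After 6 h of CR31B, 4 of the 10 genes fell and none rose in the fit on treatment alone. MANF, a small ER-resident and secreted trophic protein, went from 278 ± 37.9 TPM in DMSO to 125 ± 13.6 TPM (SD, n = 4 each). HSPA5 (BiP, the master Hsp70 chaperone of the ER lumen) went from 193 ± 49.9 to 95.8 ± 21.1 TPM, HSP90B1 (GRP94, the ER Hsp90) from 230 ± 39.7 to 134 ± 12.1 TPM, and PDIA4 (ERp72, a disulfide isomerase) from 46.5 ± 7.5 to 31 ± 4.91 TPM. The 4 that fell compare with 473 of all 11778 genes tested, 4.02%, and the share past the threshold in either direction was 7.46%. HERPUD1, SDF2L1, CRELD2 and HYOU1 also had log2 fold changes below 0 without passing, and DNAJB9 and XBP1 had values above 0 without passing. In all, 8 of 10 were below 0, where 45.9% of all genes tested were. In lysates of many cells, fewer cells with footprints and fewer footprints per cell cannot be told apart, and without RNA levels a change in message and a change in ribosomes per message cannot be told apart either.

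**Figure D1:**
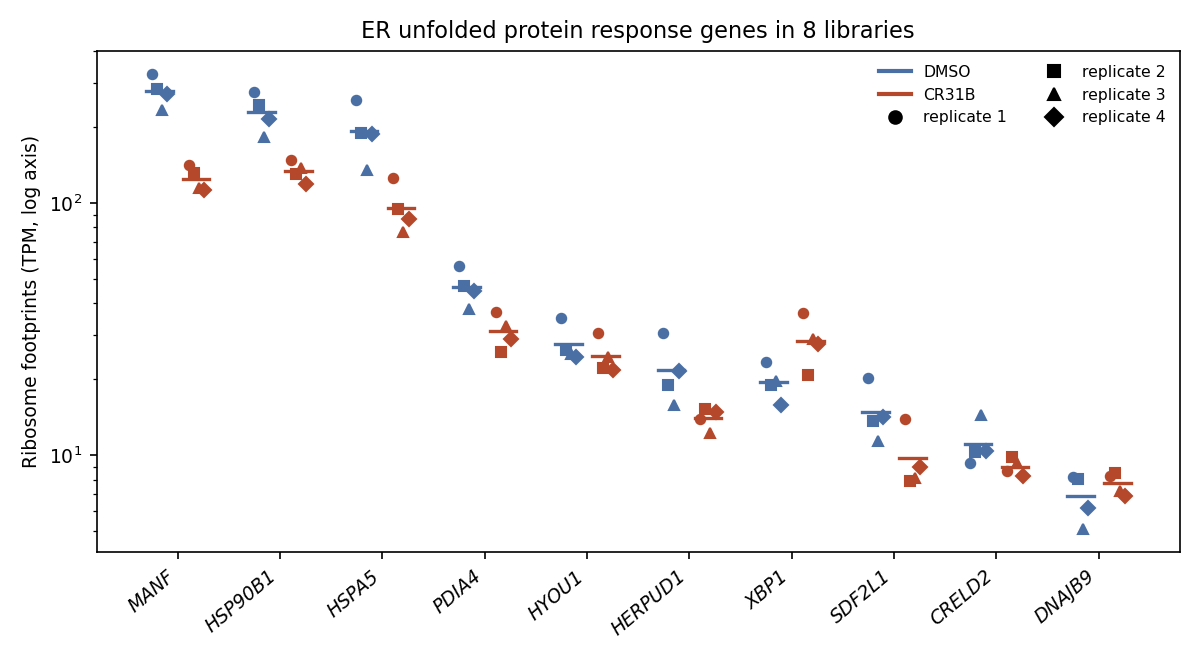
Footprint level in TPM (vertical log axis) of each of the 10 genes in the 4 DMSO libraries (blue) and the 4 CR31B libraries (orange), with a marker shape for each replicate number and a line at each group mean. All 4 CR31B points lie below all 4 DMSO points for HSPA5, HSP90B1, MANF, PDIA4 and HERPUD1, while XBP1 and DNAJB9 have the higher mean in CR31B.

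HSPA5 (ENSG00000044574.9, chr9:125234853-125241330, minus strand, GRCh38) binds unfolded chains and also holds the 3 sensors inactive when the ER is unstressed. Its levels in replicates 1 to 4 were 125.52, 94.44, 76.6 and 86.6 TPM in CR31B and 256.91, 189.88, 134.97 and 188.43 TPM in DMSO. The highest CR31B library was below the lowest DMSO library, and replicate 1 was the highest and replicate 3 the lowest in both groups. The log2 fold change of TPM + 1 was -0.99 (SE 0.203, 95% CI -1.44 to -0.54, limma adjusted p = 0.0171), and the exact permutation p was 0.0286, the smallest that 4 against 4 libraries allow. Within same-numbered replicates, CR31B held 46.0% to 56.8% of the DMSO level. The call was lost without CR31B replicate 4 (limma adjusted p = 0.0534, log2 fold change -0.95) and without DMSO replicate 4 (limma adjusted p = 0.0532, log2 fold change -0.99). It was also lost with no filter on low values (limma adjusted p = 0.0795).

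HSP90B1 (ENSG00000166598.16, chr12:103930107-103953645, plus strand) folds a narrower set of clients such as integrins and Toll-like receptors. It stood at 147.87, 130.07, 137.82 and 119.35 TPM in CR31B and at 275.49, 245.07, 182.85 and 215.19 TPM in DMSO. The groups did not overlap, and DMSO replicate 3 was nearest to the CR31B libraries, as it was for HSPA5. The log2 fold change was -0.76 (SE 0.141, 95% CI -1.07 to -0.45, limma adjusted p = 0.0108). In replicate 3, CR31B held 75.4% of the DMSO level, against 53.1% to 55.5% in the other 3 replicates. An exon of HSP90B1 overlaps the microRNA gene MIR3652 on the same strand, listed at 144.79 to 440.77 TPM in CR31B and 197.12 to 402.58 TPM in DMSO (log2 fold change -0.2, limma adjusted p = 0.786). C12orf73 overlaps HSP90B1 exons on the opposite strand, listed at 40.04 to 50.34 TPM in CR31B and 34.47 to 47.45 TPM in DMSO. How reads were divided between overlapping annotations is not given in the sources used here.

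HYOU1 (GRP170), the nucleotide exchange factor that lets HSPA5 release its clients, held 30.49, 22.14, 24.52 and 21.71 TPM in CR31B and 34.84, 26.15, 25.18 and 24.58 TPM in DMSO. The groups overlapped, with CR31B replicate 1 above 3 of the 4 DMSO libraries. Its log2 fold change was -0.16 (95% CI -0.49 to 0.18, limma adjusted p = 0.583). DNAJB9 (ERdj4), a J-domain cochaperone that keeps HSPA5 on IRE1, had the lowest mean of the 10 in both groups. It stood at 8.28, 8.53, 7.23 and 6.9 TPM in CR31B and at 8.19, 8.05, 5.08 and 6.19 TPM in DMSO, with a log2 fold change of 0.17 (95% CI -0.18 to 0.52, limma adjusted p = 0.582). Both intervals leave out a fall as large as the estimate for HSPA5. DNAJB9 shares exon sequence with PNPLA8 and THAP5 on the opposite strand, and the strand setting of the quantification is not given in the sources used here.

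SDF2L1, a stress-induced partner of the ER DnaJ cochaperones, held 13.94, 7.9, 8.13 and 9 TPM in CR31B and 20.21, 13.66, 11.36 and 14.22 TPM in DMSO. The groups overlapped only through replicate 1 of CR31B, while CR31B was lower in 4 of 4 same-numbered replicates, at 57.8% to 71.6% of DMSO. Its log2 fold change was -0.57 (95% CI -1.02 to -0.11, limma adjusted p = 0.128). With the replicate number as a block it passed (limma adjusted p = 0.0162), and it also passed without CR31B replicate 1 (log2 fold change -0.74, limma adjusted p = 0.0449).

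PDIA4 (ENSG00000155660.11, chr7:149003062-149028641, minus strand) forms and rearranges disulfide bonds. It held 37.1, 25.7, 32.51 and 28.84 TPM in CR31B and 56.25, 46.95, 38.13 and 44.64 TPM in DMSO. The groups did not overlap, and CR31B replicate 1 and DMSO replicate 3 were the nearest libraries across them. Its log2 fold change was -0.57 (SE 0.15, 95% CI -0.9 to -0.23, limma adjusted p = 0.0466), close to the threshold. It did not pass when CR31B replicate 2, 3 or 4 or DMSO replicate 1, 2 or 4 was left out (limma adjusted p from 0.0739 to 0.122, log2 fold change from -0.59 to -0.47), nor with no filter on low values (limma adjusted p = 0.128) or no mean-variance trend (limma adjusted p = 0.0591). CRELD2, an ER protein with isomerase activity, held 8.65, 9.8, 9.32 and 8.24 TPM in CR31B and 9.31, 10.29, 14.43 and 10.39 TPM in DMSO, groups that overlapped. Its log2 fold change was -0.26 (95% CI -0.58 to 0.06, limma adjusted p = 0.309), and it shares exon sequence with ALG12 on the opposite strand.

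MANF (ENSG00000145050.19, chr3:51385047-51389397, plus strand) binds HSPA5 in the ER and is released from stressed cells. Its levels were 141.37, 130.94, 114.96 and 112.57 TPM in CR31B and 325.85, 283.38, 233.86 and 270.72 TPM in DMSO. The highest CR31B library, replicate 1, was well below the lowest DMSO library, replicate 3. The log2 fold change was -1.15 (SE 0.131, 95% CI -1.44 to -0.86, limma adjusted p = 0.00132). MANF held 41.6% to 49.2% of the DMSO level in the 4 same-numbered replicates. MANF and HSP90B1 passed the threshold in each of the 17 alternative analyses run.

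HERPUD1 (ENSG00000051108.15, chr16:56932048-56944863, plus strand) is a membrane scaffold of ER-associated degradation, the route by which misfolded proteins leave the ER for the proteasome. It stood at 13.92, 15.28, 12.21 and 14.78 TPM in CR31B and at 30.64, 18.98, 15.81 and 21.48 TPM in DMSO. The groups did not overlap, but DMSO spread from 15.81 to 30.64 TPM while CR31B ran only from 12.21 to 15.28 TPM. The log2 fold change was -0.56 (SE 0.181, 95% CI -0.96 to -0.16, limma adjusted p = 0.0914). It passed with the replicate block (limma adjusted p = 0.0495) and without DMSO replicate 3 (log2 fold change -0.69, limma adjusted p = 0.0435). With HERPUD1, 5 of the 10 genes had all CR31B libraries below all DMSO libraries and none had them all above, where 8.14% of all genes tested were apart in the lower and 8.07% in the higher direction, 16.2% in all.

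XBP1 (ENSG00000100219.16, chr22:28794555-28800597, minus strand), the transcription factor of the IRE1 arm, had the highest log2 fold change of the 10. It stood at 36.62, 20.82, 28.8 and 27.58 TPM in CR31B and at 23.38, 18.94, 19.63 and 15.77 TPM in DMSO. CR31B was higher in 4 of 4 same-numbered replicates, at 110% to 175% of DMSO, while CR31B replicate 2 lay below DMSO replicate 1. The log2 fold change was 0.51 (SE 0.175, 95% CI 0.13 to 0.9, limma adjusted p = 0.107, exact permutation p = 0.0571). It passed with the replicate block (limma adjusted p = 0.0383) and without CR31B replicate 2 (log2 fold change 0.65, limma adjusted p = 0.0445). It also passed when TPM was rescaled over protein-coding genes (log2 fold change 0.55, limma adjusted p = 0.0359), which made 1 rise and 4 falls among the 10. A level per gene does not separate the spliced from the unspliced XBP1 message, so the splicing that IRE1 performs was not measured here. With the block, 6 of the 10 genes fell and 1 rose, where 6.56% of all genes tested fell and 5.77% rose.

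**Figure D2:**
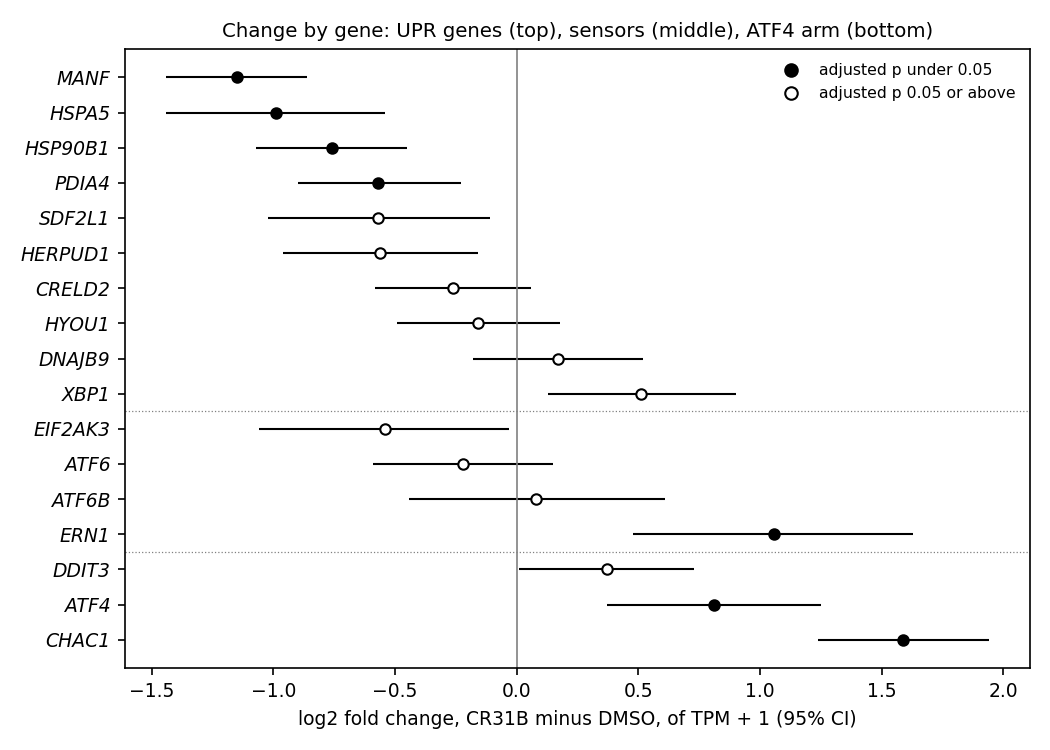
Log2 fold change of TPM + 1, CR31B minus DMSO, with its 95% confidence interval (horizontal axis), for the 10 genes (top), 4 sensor genes (middle) and 3 genes of the ATF4 arm (bottom), with filled points for adjusted p under 0.05. The values run from -1.15 for MANF to 0.51 for XBP1 among the 10, and ERN1, ATF4 and CHAC1 are filled on the right.

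The order of the 10 levels was described within each group. In DMSO the order of mean levels was MANF, HSP90B1, HSPA5, PDIA4, HYOU1, HERPUD1, XBP1, SDF2L1, CRELD2 and DNAJB9. Neighbours in that order overlapped except at 3 steps, from HSPA5 (193 TPM) to PDIA4 (46.5 TPM), from PDIA4 to HYOU1 (27.7 TPM), and from CRELD2 (11.1 TPM) to DNAJB9 (6.88 TPM). In CR31B, HSP90B1 (134 TPM) stood above MANF (125 TPM), with overlap between them. XBP1 (28.5 TPM) took the fifth place instead of the seventh, above HYOU1 (24.7 TPM) and HERPUD1 (14 TPM), with overlap between XBP1 and HYOU1. Footprints lie mostly on coding sequence while TPM divides by the whole transcript, and coding sequence makes up 24.6% of the DNAJB9 transcript but 84.3% of that of HSP90B1, so levels of different genes are only roughly comparable.

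The 10 genes together took 0.0681% to 0.104% of all TPM in DMSO and 0.0436% to 0.0564% in CR31B, and the groups did not overlap. Of the protein-coding TPM alone they took 0.131% to 0.178% in DMSO and 0.0838% to 0.092% in CR31B. The groups did not overlap on that scale either. HSPA5, HSP90B1 and MANF made up 81.0% to 83.4% of the 10 genes' summed level in DMSO and 72.9% to 76.3% in CR31B. For every 100 TPM of HSPA5, XBP1 had 8.37 to 14.5 TPM in DMSO and 22.0 to 37.6 TPM in CR31B, a ratio that did not overlap between groups even though XBP1 itself did. Both genes' changes enter that ratio, and HSPA5 alone did not overlap between groups.

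Genes that fell were found both with and without a promoter element. Of the 7 genes with an ERSE or ERSE-II match, HSPA5 and HSP90B1 fell, and XBP1, also with an ERSE, had a log2 fold change of 0.51. MANF and PDIA4 fell without a match to either motif in this window, and DNAJB9 had no match either. Over the genome, 43 of 27305 genes held either motif, and 26 of them were tested. Of these 26, 18 had log2 fold changes below 0, where 45.9% of all genes tested were. Their median was -0.19, and the 19 that are not among the 10 had a median of -0.18, where the median of all genes tested was 0.03. The 19 are not independent of the ER genes described here. They include CALR, CANX and PDIA6 of the ER folding list below, and ALG12, which shares exon sequence with CRELD2. Of the 26, HSPA5 and HSP90B1 fell, where 4.02% of all genes tested fell and 3.45% rose. ZNF17 passed and rose (log2 fold change 0.97, limma adjusted p = 0.00219). Its name was taken after its value was seen. The core of the UPR element, TGACGTGG, bound by XBP1 and ATF6, was found for HYOU1 and in 0.612% of all windows. The core of the ATF4 composite site, TTGCATCA, was found for HERPUD1 and in 0.772% of all windows.

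The 5′ leaders of the 10 genes were compared next. Rocaglates act through purine stretches, so the longest unbroken run of A and G was measured in the 5′ UTR of 9868 tested genes (GENCODE 29). The median over these genes was 8 nt. MANF carries 23 nt directly before its start codon, at percentile 98.5 of these genes. The stretch is shown with the run in capitals and the start codon in lower case, as DNA letters, because it is the longest among the 10 genes.
MANF, transcript ENST00000528157.5: GGAGGAGGAGGAGGAGGAGGAGGatg
Next came DNAJB9 with 13 nt and HSPA5 with 10 nt, while HSP90B1 and HYOU1 had 8 nt, XBP1 7 nt, and HERPUD1, PDIA4, SDF2L1 and CRELD2 6 nt. In all, 158 genes (1.6%) had a run of 23 nt or more, a length set after MANF's value was seen. Their median log2 fold change was -0.15, 26 of them (16.5%) fell and 10 (6.33%) rose, where 4.24% of the 9868 genes fell and 3.49% rose. MANF itself is counted among the 158 and among the 26. The 10 genes had a median 5′ UTR length of 190 nt against 211 nt over all, a median GC content of 72.1% against 66.4%, and a median purine content of 55.6% against 50.8%. One annotated transcript was used per gene, and whether it is the one made in these cells was not tested.

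**Figure D3:**
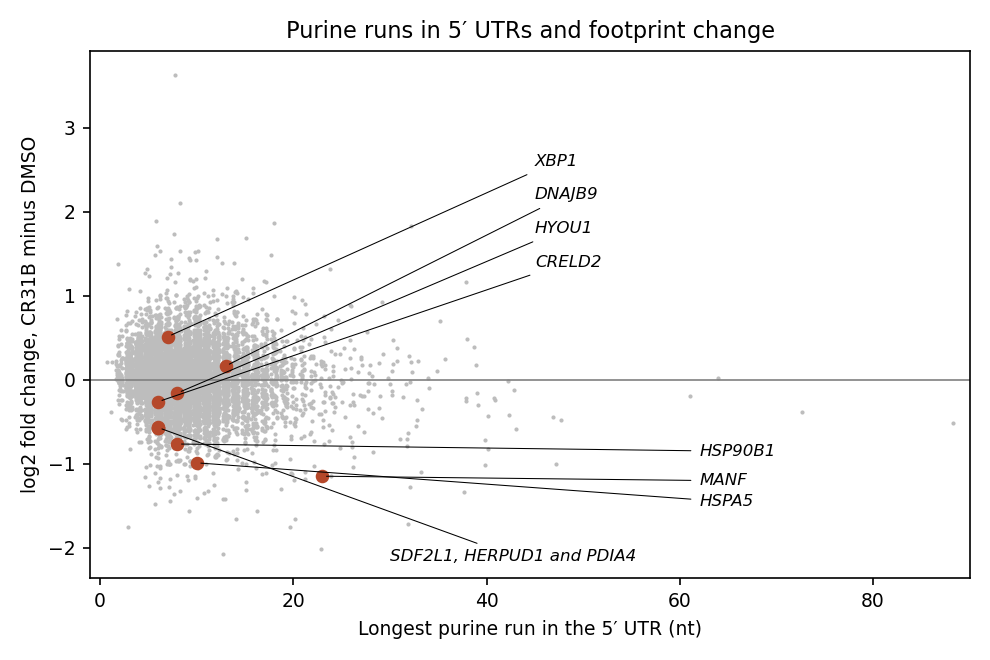
Longest purine run in the 5′ UTR in nt (horizontal axis, small random shift for the grey points) against log2 fold change, CR31B minus DMSO (vertical axis), for 9868 tested genes (grey) and the 10 genes (orange). MANF lies at 23 nt and -1.15, while the other 9 lie between 6 and 13 nt with values from -0.99 to 0.51.

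Upstream of these genes stand the sensors of ER stress. ERN1, which encodes IRE1, was the single gene past the threshold among 9 sensors and their processing factors, and it rose. The list's share past the threshold was 11.1%, against 7.46% of all genes tested. It held 6.19, 4.31, 5.45 and 2.93 TPM in CR31B and 1.47, 2.63, 0.75 and 2.29 TPM in DMSO, low levels whose groups did not overlap. Its log2 fold change was 1.06 (SE 0.258, 95% CI 0.48 to 1.63, limma adjusted p = 0.0338). The call was lost without CR31B replicate 1, 2 or 3 or DMSO replicate 1, 3 or 4 (limma adjusted p from 0.0587 to 0.0868, log2 fold change from 0.85 to 1.16), and with no filter on low values (limma adjusted p = 0.141). EIF2AK3, which encodes PERK, had 2.93 ± 1.32 TPM under CR31B against 4.6 ± 1.15 TPM under DMSO (SD, 4 libraries per group) and a log2 fold change of -0.54 (limma adjusted p = 0.188). ATF6 stood at 18.4 ± 4.28 and 21.4 ± 3.08 TPM, a value of -0.22 (limma adjusted p = 0.465). For its relative ATF6B the value was 0.08 (limma adjusted p = 0.879). The median of the 9 genes was -0.18. Sensor activity depends on phosphorylation, splicing or cleavage, which footprint levels do not show.

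The wider set of lumenal folding enzymes and chaperones was read next. Of 25 listed genes, 23 were tested, 2 fell and none rose, so that 8.7% passed where 7.46% of all genes tested did. Of the 23, 69.6% were below 0, against 45.9% of all genes tested, with a median of -0.24. DNAJB11 (ERdj3), an HSPA5 cochaperone, went from 57 ± 8.72 to 34.4 ± 2.66 TPM (log2 fold change -0.7, limma adjusted p = 0.0112). FKBP2, a prolyl isomerase of the ER, went from 69.3 ± 4.08 to 51 ± 6.42 TPM (log2 fold change -0.44, limma adjusted p = 0.0458). Unlike DNAJB11, FKBP2 lost its call without CR31B replicate 2, 3 or 4 or any 1 of the DMSO replicates (limma adjusted p from 0.0544 to 0.124), with no filter on low values (limma adjusted p = 0.0836) and with no mean-variance trend (limma adjusted p = 0.0636). CALR (calreticulin, a lectin chaperone of glycoproteins) was the gene of this list nearest to passing, with 396 ± 34.7 TPM under CR31B against 549 ± 65.1 TPM under DMSO (log2 fold change -0.47, limma adjusted p = 0.0517). CALR was named after its value was seen, and with the replicate block it fell (limma adjusted p = 0.0166), as did FKBP14 (limma adjusted p = 0.0385), making 4 calls. With the block, 12.3% of all genes tested passed and 6.56% fell.

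Of 19 genes of ER-associated degradation, 18 were tested, 2 fell and none rose, with a median of -0.09. The share past the threshold was 11.1%, against 7.46% of all genes tested. DERL1, a channel component, went from 73.1 ± 2.13 to 51.8 ± 6.29 TPM (log2 fold change -0.5, limma adjusted p = 0.0258). NPLOC4, a cofactor of the VCP extraction motor, went from 42.9 ± 7.54 to 26.3 ± 3.53 TPM (log2 fold change -0.68, limma adjusted p = 0.0265). Both lost the call without several single libraries, DERL1 without CR31B replicate 2 or 4 or any 1 DMSO replicate (limma adjusted p from 0.0516 to 0.0733) and NPLOC4 without CR31B replicate 1 or 4 or DMSO replicate 1, 3 or 4 (limma adjusted p from 0.0565 to 0.0873). NPLOC4 also lost it with no filter on low values (limma adjusted p = 0.0844). With the replicate block SEL1L, the adaptor of the HRD1 ligase, also fell (limma adjusted p = 0.0242) and EDEM3, a mannosidase, rose (limma adjusted p = 0.0425). Of 25 genes of translocation into the ER and early secretion, 24 were tested and SPCS3, a signal peptidase subunit, fell from 172 ± 8.88 to 118 ± 8.36 TPM (log2 fold change -0.54, limma adjusted p = 0.0122). It was the only call of that list, 4.17% of the genes tested, where 4.02% of all genes tested fell. The median of that list was -0.02, near the 0.03 of all genes tested. With the block KDELR1, which returns chaperones to the ER, fell (limma adjusted p = 0.0397) and SRPRA, of the signal recognition particle receptor, rose (limma adjusted p = 0.0313). The block calls of both lists stand beside 6.56% of all genes tested that fell and 5.77% that rose with the block.

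**Figure D4:**
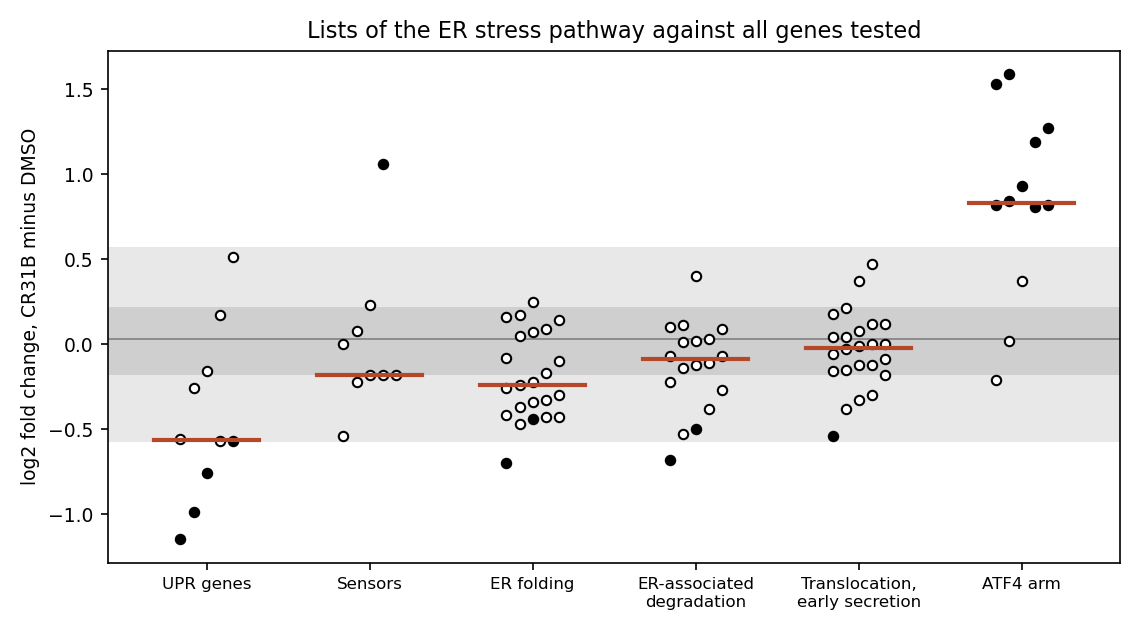
Log2 fold change, CR31B minus DMSO (vertical axis), of each tested gene in 6 lists, with filled points for adjusted p under 0.05, an orange line at each list's median, and grey bands for the 5th to 95th and 25th to 75th percentiles of all genes tested. The median is -0.56 for the 10 UPR genes, -0.24 for other ER folding genes and 0.83 for the ATF4 arm.

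The ATF4 arm moved the other way in the same libraries. ATF4 itself rose from 159 ± 35.3 TPM under DMSO to 277 ± 50.6 TPM under CR31B (SD, 4 libraries per group, log2 fold change 0.81, SE 0.198, limma adjusted p = 0.0338). A level per gene does not separate footprints on the 5′ leader from those on coding sequence, so synthesis of ATF4 protein was not measured here. The call of ATF4 was lost without CR31B replicate 1, 3 or 4 or DMSO replicate 1, 2 or 4 (limma adjusted p from 0.0604 to 0.0906, log2 fold change from 0.74 to 0.88), and with no filter on low values (limma adjusted p = 0.13). Of 14 genes of the arm, 12 were tested, 9 rose and none fell, where 3.45% of all genes tested rose. Besides DDIT3, given below, PPP1R15A (log2 fold change 0.02, limma adjusted p = 0.95) and ERO1A (-0.21, limma adjusted p = 0.408) did not pass. Both were named after their values were seen. On the log2(TPM + 1) scale, which understates low genes, the largest rises were those of CHAC1, a glutathione-degrading enzyme (log2 fold change 1.59, limma adjusted p = 0.000673), DDIT4, an inhibitor of mTORC1 (1.53, limma adjusted p = 0.00809), and ATF3, a transcription factor (1.27, limma adjusted p = 0.00688). By the ratio of mean TPM, SESN2, a stress-induced inhibitor of mTORC1 named after its value was seen, stood above ATF3, at 2.95 against 2.76. DDIT3 (CHOP), which ER stress induces through ATF4, had 1.62 ± 0.472 TPM under CR31B against 1.01 ± 0.113 TPM under DMSO, with groups apart and a log2 fold change of 0.37 (limma adjusted p = 0.203). It shares exon sequence with MARS on the opposite strand, listed at 158.91 to 242.35 TPM in CR31B and 98.65 to 163.88 TPM in DMSO. MBD6 also overlaps it on the opposite strand. On its own strand DDIT3 shares exon sequence with the protein-coding gene AC022506.1. That gene is listed at 6.92 to 13.62 TPM in CR31B and 4.83 to 12.03 TPM in DMSO (log2 fold change 0.47, limma adjusted p = 0.329). Relative to the DMSO mean, the median of the 10 UPR genes was -0.31, -0.62, -0.6 and -0.56 in CR31B replicates 1 to 4, and that of the ATF4 arm was 0.98, 0.74, 1.01 and 0.92. The same quantity ran from -0.29 to 0.28 and from -0.1 to 0.16 in the DMSO libraries.

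The pattern of HSPA5 across the 8 libraries was matched most closely by EIF5A (Pearson r 0.987, Spearman rho 0.976), ALDOC (0.985 and 0.929) and TTC9C (0.981 and 1.0), among 5612 genes whose mean reached 10 TPM. TTC9C fell (log2 fold change -0.48, limma adjusted p = 0.0325), and EIF5A (-0.36, limma adjusted p = 0.114) and ALDOC (-0.47, limma adjusted p = 0.0806) did not pass. HSP90B1 ranked 41st with r of 0.957, MANF 43rd with 0.956, SDF2L1 84th with 0.937, PDIA4 98th with 0.93 and HERPUD1 174th with 0.907. HYOU1 (r of 0.691), CRELD2 (0.228) and XBP1 (-0.474) ranked far lower. These values describe 8 libraries that share the treatment difference and the scaling of each library.

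Copies of the genes elsewhere in the genome took almost no footprints. The processed pseudogenes HSPA5P1, HSP90B2P, HSP90B3P and XBP1P1 reached at most 0.1, 0.19, 0.13 and 0.05 TPM in any library, and the divergent transcript HSPA5-DT at most 0.19 TPM. In GENCODE 29, HSPA5, HERPUD1, XBP1, PDIA4, SDF2L1 and MANF share no exon sequence with another gene.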

How the data were processed

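The authors deposited 1 table of TPM from ribosome-protected fragments for 60651 genes in 8 libraries, on hg38. Per the submitters' processing notes, cutadapt 3.2, Bowtie2 2.3.4.1, STAR 2.7.1a, RSEM 1.2.28 and DESeq2 1.32.0 were used. The role of each tool, the annotation release and the strand setting are not given in the sources used here. TPM forces each library to 1 sum, so a rise in some RNAs lowers others.

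Values were analysed as log2(TPM + 1), which understates the change of low genes. Genes whose mean reached 1 TPM were fitted with limma 3.58.1 (R 4.3.3; lmFit, eBayes with trend) on treatment alone, and p-values were adjusted by Benjamini-Hochberg over all 11778 genes, with a threshold of 0.05. "Rose" and "fell" mean past that threshold. Single genes were also compared over the 70 assignments of libraries to groups (exact permutation test, two-sided). On 5 simulated tables with 200 changed genes, 71.6% were recovered at a log2 fold change of 1 and 96.4% at 2, with 3.31% of calls false. Other steps used Python 3.11.15 with pandas 2.3.3, SciPy 1.17.1, NumPy 2.4.6 and matplotlib 3.10.9.

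Replicate numbers 1 to 4 occur in both groups' labels without stating a shared culture or day. After group means were removed, same-numbered libraries 1 to 4 correlated across genes at 0.333, 0.324, 0.301 and 0.105, against -0.206 to 0.134 for different numbers. The 0.105 of replicate 4 was below the 0.134 of CR31B replicate 4 with DMSO replicate 1. The numbers were treated as pairs only in an alternative fit, with the replicate number as a block. Counts given without the block leave the numbers out. Other alternatives changed the pseudocount, the filter, the scaling, the trend and the libraries used.

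The 10 genes, the pathway lists and the tests were chosen with earlier results of these data known. Named genes were the 10, ERN1, ATF6, ATF6B, EIF2AK3, ATF4, DDIT3, up to 3 rises and 3 falls per list, the 3 genes most like HSPA5, and copies or overlapping genes. Genes that passed only with the block were named after their values were seen.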

Additional observations from a re-analysis of the deposited data

Results flagged for a closer look

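Dixon's test for a sample far from the other 3 was applied to 48 groups of 4 libraries, of which chance would flag 2.4, and 4 were flagged. HYOU1 stood at 34.84 TPM in DMSO replicate 1, where the other DMSO libraries held 24.58 to 26.15 TPM. ATF4 stood at 106.21 TPM in DMSO replicate 3, where the others held 172.1 to 181.02 TPM. CHAC1 stood at 1.51 TPM in DMSO replicate 1, where the others held 0.88 to 0.96 TPM. DDIT4 stood at 12.34 TPM in DMSO replicate 1, where the others held 5.69 to 6.77 TPM.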

How the results depend on the processing

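None of the 10 UPR genes changed direction under the alternatives run, 17 for each gene but DNAJB9, which had 16 because it is not tested at a mean of at least 10 TPM. MANF and HSP90B1 passed the threshold in 17 of 17, HSPA5 in 14, PDIA4 in 9, XBP1 in 3, HERPUD1 and SDF2L1 in 2, and CRELD2, HYOU1 and DNAJB9 in none. The number of the 10 past the threshold went from 4 to 7 with the replicate block and to 2 with no filter on low values, and ran from 2 to 5 when single libraries were left out. Their median ran from -0.67 to -0.4, the latter without DMSO replicate 1. Over all genes, 879 calls became 1453 with the block and 442 with no filter (28564 genes tested), and 405 to 785 without single libraries. The 879 became 1174 with quantile normalization and 1154 with median of ratios. Rescaled over protein-coding genes, 1236 of 10382 passed, 670 higher and 566 lower, where 406 were higher and 473 lower before. For the sensors, the 1 call became 0 at a mean of at least 10 TPM, where ERN1 is not tested, and 0 with no filter, and 0 to 1 without single libraries. For ER folding, 2 calls became 4 with quantile normalization, median of ratios or the block, 1 with no filter or no trend, and 1 to 3 without single libraries. For ER-associated degradation, 2 became 4 with the block, 1 with no filter, and 0 to 2 without single libraries. For translocation, 1 became 2 at 10 TPM, under quantile normalization, coding-gene rescaling or median of ratios, and 3 with the block. For the ATF4 arm, 9 became 3 at 10 TPM, where fewer genes are tested, and 6 to 9 without single libraries. ATF6B, not past the threshold, ran from -0.07 to 0.29 without single libraries and changed sign without CR31B replicate 3 (-0.05), DMSO replicate 2 (-0.07) or DMSO replicate 4 (-0.01). The block changed no call of a gene in the 6 lists other than those given with the genes above. Beyond the tested number of genes, the cause of these shifts was not tested. The 4 libraries per group, an unknown depth and the absence of RNA levels limit all values.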
